A study of Mus with 2 samples.

Results

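Glycolysis, the entry and exit of pyruvate, and the pentose phosphate pathway were followed through 36 genes in mouse bone marrow cells sorted as hematopoietic stem cells (HSCs). The genes were chosen by name, as rows whose symbol is on a list of 36, and each symbol matched 1 of the 27998 rows in both libraries. The list holds 6 genes of glucose uptake and hexose phosphates, 6 phosphofructokinases and their bifunctional regulators, 9 genes of the triose steps, 4 genes of lactate, 6 genes of pyruvate entry and 5 genes of the pentose phosphate pathway.

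In glycolysis, hexokinases trap glucose as glucose 6-phosphate, phosphofructokinase commits it to breakdown, and the triose steps yield pyruvate and ATP. Pyruvate is either reduced to lactate by lactate dehydrogenase or carried into mitochondria, where the pyruvate dehydrogenase complex feeds it to respiration unless pyruvate dehydrogenase kinases switch the complex off. The pentose phosphate pathway branches off at glucose 6-phosphate and gives NADPH and ribose. Quiescent HSCs are known for their reliance on glycolysis, and several of these genes are known targets of the hypoxia factor HIF-1α.

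Single-cell RNA-Seq was performed on LSK FLT3– CD150+ CD48– cells (LSK stands for lineage-negative, Sca-1+ and c-Kit+) to compare Id2Δ/Δ with Id2+/+ HSCs. Both groups carried Mx1-Cre, a recombinase driven by an interferon-responsive promoter, and both were given pIpC, which switches it on in blood cells and in other interferon-responsive cells. The cells were purified 2 weeks after pIpC. In the Id2Δ/Δ group the floxed segment of Id2, an inhibitor of DNA binding, had been deleted. Per the labels, 1000 cells of each genotype came from the tibias and fibulas of 5 pooled mice aged 8 to 12 weeks, so there was 1 library per genotype and differences between genotypes have no replicate check. One clause of the labels on the Id2Δ/Δ sample gives Id2+/+ mice as the source of the bone. The group was taken from its title and genotype, which name the deletion.

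The libraries held 8612217 (Id2+/+) and 17140713 (Id2Δ/Δ) unique molecular identifiers (UMIs), each UMI being 1 captured RNA molecule. Id2 was seen with 22 and 0 UMIs in the retained stem cells. Its floxed segment lies upstream of the last exon, so the counts by themselves are no check of the deletion. After removal of other cell types, 262 Id2+/+ and 416 Id2Δ/Δ stem cells were retained, with a median of 7081 and 9663 UMIs. They included 175 and 44 HSC-like cells, 75 and 92 platelet-biased HSC-like cells and 11 and 45 activated HSC-like cells, and 1 and 235 cells stayed unnamed. The retained cells of the 2 libraries are thus unlike mixtures. Of the unnamed Id2Δ/Δ cells, 84 were in a cluster led by lymphoid and replication genes (Vpreb3, Igll1, Vpreb1, Mzb1, Dntt, Hells, Mcm5) and 151 in one led by Gsta4 and Gm5111. The removed cells were 44 and 169 erythroid-like cells and 27 and 40 neutrophil-like cells. The summed level of 11 erythroid markers was 62053 and 26609 CPM (UMIs of the genes scaled to a total of 1000000) in erythroid-like cells, against 1214 and 789 in retained cells. That of 10 neutrophil markers was 71074 and 91240 CPM in neutrophil-like cells, against 1073 and 641 in retained cells. The 7 markers of activated HSCs summed to 1730.04 and 1327 CPM in activated HSC-like cells, against 786 and 761 in retained and 1046 and 1226 in erythroid-like cells. Free RNA, estimated from haemoglobin in empty droplets (1 to 100 UMIs), made up 10.5% and 5.41% of the UMIs of retained cells. Where free RNA is subtracted below, these same shares were taken from each class. Erythroid-like cells had a median of 33769.5 and 38755 UMIs, and whether the shares hold for them or for other classes was not tested. The summed level of 16 genes of the dissociation stress response was 1855 and 731 CPM in retained cells, so the genotypes also differed in this respect, and its part in the results was not tested. Most retained and erythroid-like clusters held cells of mainly 1 library, so a difference between genotypes within a class cannot be told apart from a difference between the libraries. UMIs of Xist without any Y-linked one were found in 32.1% and 55.5% of retained cells, and the reverse in 35.5% and 21.6%. Both pools therefore held cells of either sex in unlike shares. The libraries shared 1 cell barcode.

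All levels are UMIs summed over the cells of a class and library, in CPM, with exact Poisson 95% intervals in parentheses. Ratios carry the exact conditional 95% interval, and shares the exact Clopper-Pearson 95% interval. These intervals cover counting error only and not the spread between mice. Pairs of values are given as Id2+/+ and then Id2Δ/Δ throughout. A gene was counted as past the fold when its ratio, with 0.5 UMI added to each count, reached 1.5 or 1/1.5 between genotypes, or 2 or 1/2 between cell classes in both libraries, with at least 20 UMIs over the cells compared. A summed level does not tell fewer cells with an RNA from less RNA per cell. The UMI level of a gene has no term for its length, and how well different genes were captured was not tested.

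As a whole, the 36 genes took nearly equal shares of the RNA of retained stem cells in both genotypes. Their summed level was 6018 (5915 to 6123) and 5990.1 (5920.2 to 6061) CPM, a ratio of 0.995 (0.975 to 1.02). The median cell gave 0.584% of its UMIs to these genes in either library, and the cells ranged from 0.249% to 1.0% and from 0.240% to 0.929%. The ratios of the sum between genotypes were 0.963 (0.915 to 1.01) in HSC-like, 0.931 (0.90 to 0.962) in platelet-biased, 0.98 (0.954 to 1.01) in erythroid-like and 0.883 (0.85 to 0.916) in neutrophil-like cells. The intervals of platelet-biased and neutrophil-like cells lie below 1. Erythroid-like cells stood at 4489.5 (4379 to 4602) and 4401 (4350.3 to 4453) CPM, 0.746 (0.724 to 0.769) and 0.735 (0.723 to 0.747) times the level of retained stem cells. Neutrophil-like cells were highest, at 10389 (10097 to 10687) and 9169 (8950.4 to 9392) CPM, or 1.73 (1.67 to 1.78) and 1.53 (1.49 to 1.57) times the stem cell level. In platelet-biased HSC-like cells the sum was 6511 (6341 to 6684) and 6060.3 (5939 to 6184) CPM and in HSC-like cells 5753 (5616 to 5894) and 5542 (5294 to 5799). The order neutrophil-like, platelet-biased, HSC-like and erythroid-like was the same in both libraries, and no neighbours in it had overlapping counting intervals. Activated HSC-like and unnamed cells are not part of this order. The activated ones were at 4989 (4588 to 5416) and 5108 (4900 to 5321) CPM. Their interval overlapped that of erythroid-like cells in Id2+/+ and that of HSC-like cells in Id2Δ/Δ. The unnamed Id2Δ/Δ cells, at 6177 (6077 to 6279) CPM, overlapped the platelet-biased ones. Empty droplets, whose RNA is a mix of all lysed cells, stood at 7301 and 5412 CPM.

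**Figure D1:**
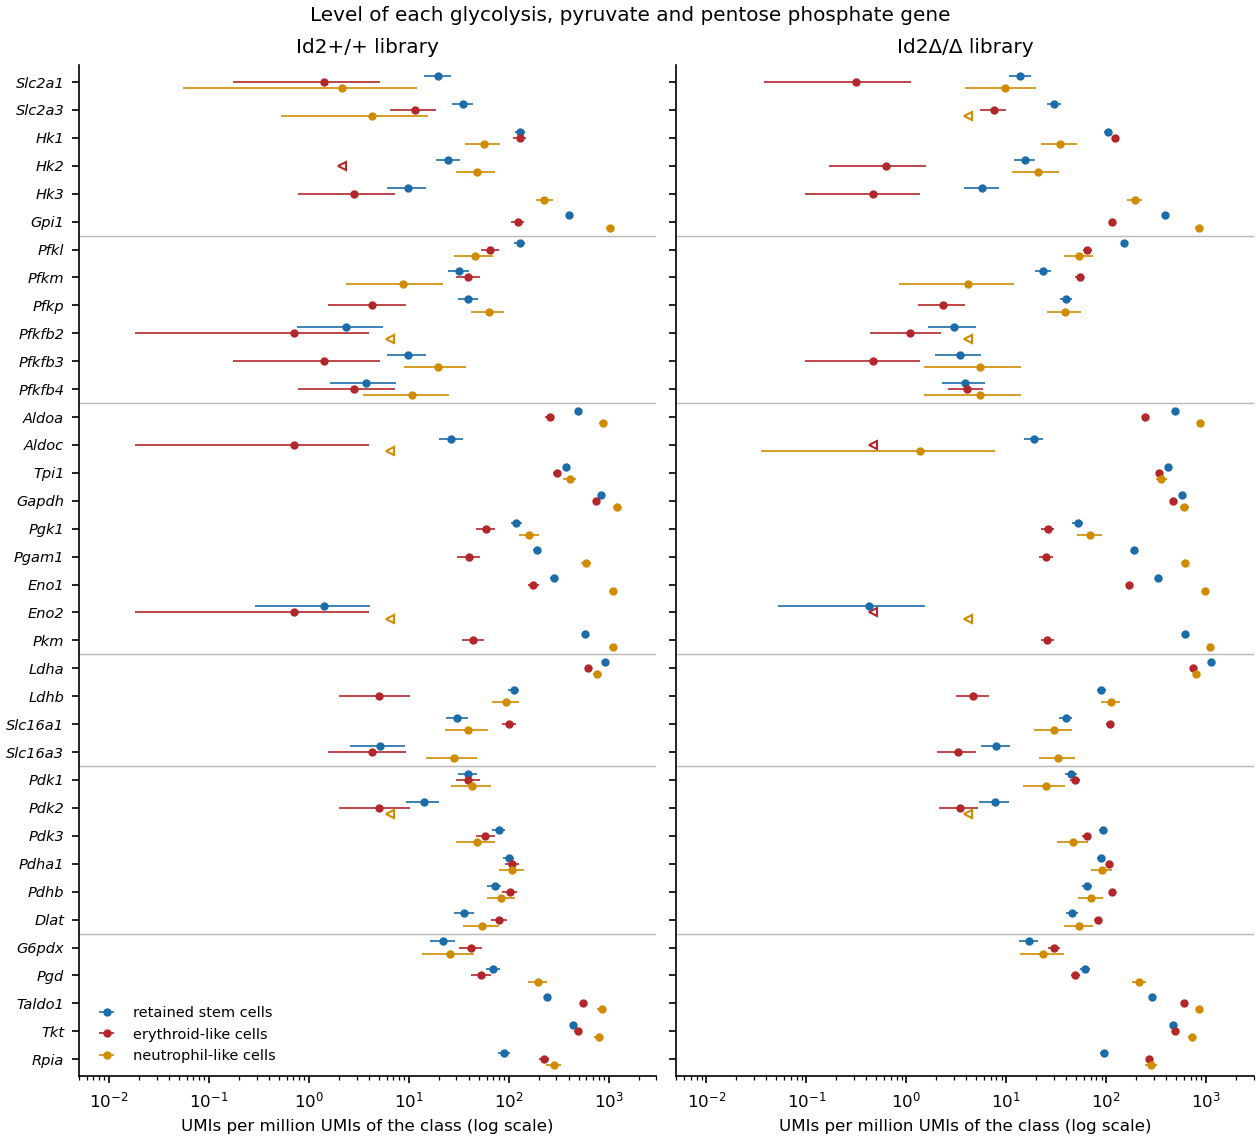
Level of each of the 36 genes (CPM of summed UMIs, log axis) by cell class and library, with exact Poisson 95% intervals; open triangles mark classes with 0 UMIs at the limit of 3 counts. Ldha, Gapdh and Pkm lie at the top in retained stem cells, at 922 and 1109, 846 and 571 and 576 and 617 CPM, and Pkm is among the genes that separate erythroid-like cells (44.3 and 25.8 CPM) from the rest.

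In the retained stem cells a few genes carried most of the signal. Ldha (ENSMUSG00000063229, chr7:46842274-46855627), the muscle-type subunit of lactate dehydrogenase, had the highest level of the 36, at 922 (881 to 963) in Id2+/+ and 1109 (1079 to 1139.7) in Id2Δ/Δ. Gapdh (ENSMUSG00000057666, chr6:125161852-125166467), which oxidises glyceraldehyde 3-phosphate, was at 846 (807 to 886) in Id2+/+ and 571 (549.7 to 593) in Id2Δ/Δ, the next level after Ldha in the Id2+/+ library. Pkm (ENSMUSG00000032294, chr9:59656576-59679372), the pyruvate kinase of most tissues, was at 576 (544 to 609) in Id2+/+ and 617 (594 to 639) in Id2Δ/Δ and took that place in the Id2Δ/Δ library. Aldoa, the main aldolase, and Tkt, the transketolase of the pentose phosphate pathway, were the next in level, at 489 and 493 CPM and 438 and 466 CPM. At the other end, Eno2, the neuronal enolase, had 3 and 2 UMIs in all retained cells, and Pfkfb2, one of the enzymes that make fructose 2,6-bisphosphate, had 5 and 14. Both stayed under 20 UMIs and were not counted. The coordinates here and below are those of RefSeq gene models on GRCm38.p6, the assembly that mm10 names.

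The comparison of Id2Δ/Δ with Id2+/+ asked whether the glycolytic program of HSCs is lower without Id2. In retained stem cells, 34 of the 36 genes had at least 20 UMIs, and the median log2 ratio (Id2Δ/Δ over Id2+/+) was -0.03, compared with -0.08 over all 10454 genes counted in the same way. None was higher past the fold of 1.5, where 3.3% of all genes were, and 5 were lower, where 13.5% of all genes were. The 5 were Hk2, Hk3, Pfkfb3, Pgk1 and Pdk2. The 5 of 34 is close to the share of all genes, so the list as a whole gave no excess of lower genes. Of the 34 log2 ratios, 16 were above 0 and 18 below. Scaling by trimmed means (TMM) in place of the total moved the median over all genes from -0.08 to 0.02, and 1 gene, Slc16a3, was then higher past the fold, with the same number lower. With the unnamed cells left out, a comparison chosen after seeing the data, 261 and 181 retained cells remained. Then 8 of 33 genes were lower past the fold, where 18.4% of all genes were, and 1 was higher, where 5.63% were. The 8 were the 5 above with Slc2a1 (0.517, 0.299 to 0.873), Aldoc (0.381, 0.226 to 0.623) and Ldhb (0.506, 0.407 to 0.628), and the higher one was Slc16a1 (1.54, 1.13 to 2.13). Pgk1 gave 0.44 (0.351 to 0.547) there and Hk3, from 21 and 5 UMIs, 0.215 (0.0634 to 0.587).

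Of the 6 genes of glucose uptake and hexose phosphates, 2 were lower past the fold in Id2Δ/Δ retained cells, Hk2 and Hk3, and the median log2 ratio of the 6 was -0.42. Hk2 (ENSMUSG00000000628, chr6:82725025-82774454), an inducible hexokinase that binds mitochondria, was at 24.8 (18.6 to 32.5) in Id2+/+ and 15.4 (12 to 19.4) in Id2Δ/Δ, a ratio of 0.619 (0.428 to 0.899). Hk3, a hexokinase best known in myeloid cells, was at 9.84 (6.09 to 15) in Id2+/+ and 5.76 (3.8 to 8.38) in Id2Δ/Δ, a ratio of 0.585 (0.319 to 1.09). The interval of Hk2 lies below 1 and that of Hk3 spans 1. Hk3 was also lower in retained cells than in empty droplets, where it stood at 32.1 and 11.7 CPM, and with the estimated free RNA subtracted 13.8 of 21 and 24.0 of 27 UMIs were left, a ratio of 0.750 that is within the fold. Hk1, the general hexokinase, did not reach the fold, at 130.3 and 103 CPM and 0.793 (0.683 to 0.922), although its interval also lies below 1. The glucose transporters Slc2a1 (GLUT1) and Slc2a3 (GLUT3) gave ratios of 0.705 (0.471 to 1.06) and 0.874 (0.655 to 1.17), and Gpi1, which converts glucose 6-phosphate to fructose 6-phosphate, gave 0.964 (0.888 to 1.05). Their intervals include 1.

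Of the phosphofructokinases, which set the committed step, Pfkl (liver type) was at 128 and 152 CPM (1.18, 1.03 to 1.37), Pfkm (muscle type) at 31.9 and 23.5 CPM (0.737, 0.539 to 1.01) and Pfkp (platelet type) at 39.4 and 39.7 CPM (1.01, 0.775 to 1.32). Pfkl was thus the main form and none was past the fold. Pfkfb3 (ENSMUSG00000026773, chr2:11471430-11554071), the bifunctional enzyme whose product is the strongest activator of phosphofructokinase, had the lowest ratio of the genes counted. Its level was 9.84 (6.09 to 15) in Id2+/+ and 3.41 (1.95 to 5.55) in Id2Δ/Δ, from 21 and 16 UMIs, a ratio of 0.347 (0.169 to 0.698). Its relative Pfkfb4 stood at 3.75 and 3.84 CPM with a ratio of 1.02 (0.424 to 2.72), which at 26 UMIs in all leaves a wide range.

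Among the triose genes Pgk1 was the one past the fold. Pgk1 (ENSMUSG00000062070, chrX:106187100-106203699), the first ATP-yielding kinase of glycolysis and a gene of the X chromosome, was at 119 (105 to 135) in Id2+/+ and 52.3 (45.9 to 59.3) in Id2Δ/Δ, a ratio of 0.439 (0.367 to 0.526). Gapdh, the step before it, gave 0.675 (0.636 to 0.717) and fell just short of the fold. With the estimated free RNA subtracted Gapdh gave 0.647, which is past it. The other 6 genes counted lay between 0.711 (0.504 to 1.01) for Aldoc, the brain-type aldolase, and 1.16 (1.06 to 1.28) for Eno1, the general enolase. Tpi1, which interconverts the trioses, gave 1.11 (1.02 to 1.2), Aldoa 1.01 (0.937 to 1.09), Pgam1, the phosphoglycerate mutase, 1.01 (0.893 to 1.13) and Pkm 1.07 (1.0 to 1.15).

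None of the 4 genes of lactate was past the fold in all retained cells. Ldha gave a ratio of 1.2 (1.14 to 1.27), and Ldhb, the heart-type subunit, was at 113 and 89.8 CPM, a ratio of 0.795 (0.677 to 0.936). The lactate transporter Slc16a1 (MCT1) gave 1.29 (0.966 to 1.74) and Slc16a3 (MCT4) gave 1.53 (0.765 to 3.33), from 11 and 37 UMIs. Slc16a3 reached 1.53 on its raw counts and fell short of the fold once 0.5 UMI was added.

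At pyruvate entry, Pdk2 (ENSMUSG00000038967, chr11:95026258-95041371), a pyruvate dehydrogenase kinase, was the gene past the fold, at 14.1 (9.49 to 20.1) in Id2+/+ and 7.68 (5.38 to 10.6) in Id2Δ/Δ and a ratio of 0.546 (0.327 to 0.918). Pdk1, the kinase known as a HIF-1α target, was at 38.9 and 44.8 CPM with a ratio of 1.15 (0.889 to 1.5), and Pdk3 was at 79.7 and 92.8 CPM with 1.17 (0.974 to 1.4). Pdk3 was the most abundant of these kinases in either library and Pdk2 the least. The subunits of the pyruvate dehydrogenase complex gave 0.887 (0.75 to 1.05) (Pdha1, E1 alpha), 0.89 (0.73 to 1.09) (Pdhb, E1 beta) and 1.26 (0.966 to 1.66) (Dlat, E2), each interval spanning 1.

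The pentose phosphate genes had a median log2 ratio of 0.09. G6pdx, the X-linked first enzyme of the pathway, was at 22 and 16.9 CPM with a ratio of 0.765 (0.527 to 1.12), and Pgd, the enzyme of its second NADPH-yielding step, gave 0.883 (0.722 to 1.08). Taldo1, the transaldolase, gave 1.19 (1.07 to 1.32), Tkt 1.06 (0.985 to 1.15) and Rpia, the ribose 5-phosphate isomerase, 1.07 (0.898 to 1.27). None was past the fold, and the interval of Taldo1 was the one of the 5 that did not include 1.

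**Figure D2:**
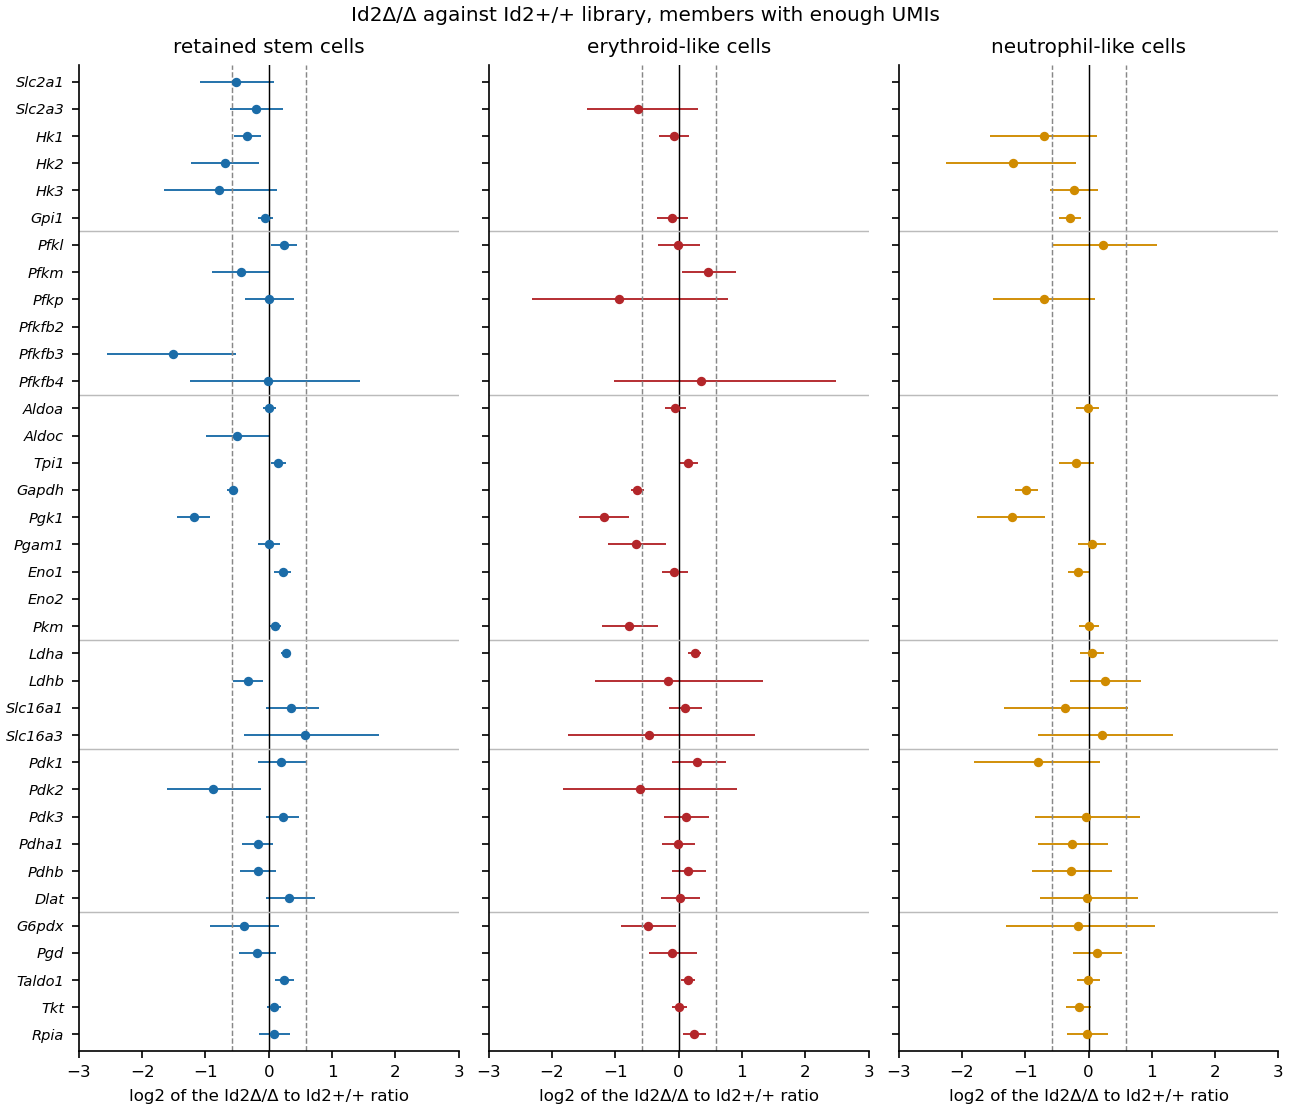
Log2 ratio of each gene, Id2Δ/Δ over Id2+/+, by cell class (points, 0.5 UMI added to each count) with exact conditional 95% intervals, for genes with at least 20 UMIs; dashed lines mark a 1.5-fold ratio. Pgk1 lies below the lower line in each class shown, at ratios of 0.439 in retained, 0.441 in erythroid-like and 0.43 in neutrophil-like cells.

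The 5 lower genes of the retained cells were examined apart in Xist-only and in Y-only cells (UMIs of Xist but of no Y-linked gene, or the reverse), since the pools differed in these shares. Pgk1 gave 0.446 (0.34 to 0.588) in the former and 0.425 (0.297 to 0.605) in the latter, close to its pooled ratio. Pfkfb3 gave 0.34 (0.108 to 1.1) and 0.177 (0.0183 to 0.885), and Pdk2 gave 0.34 (0.156 to 0.752) and 0.578 (0.212 to 1.53). Hk2 gave 0.98 (0.561 to 1.8) in the former and, from 17 and 4 UMIs, 0.166 (0.0407 to 0.51) in the latter, so the fold of Hk2 was met in the Y-only cells and not in the Xist-only cells. Hk3 gave 0.765 (0.305 to 2.17) and 0.212 (0.0375 to 0.823). Pgk1 is 1 of 4 X-linked genes of the list, and the other 3, Pdk3, Pdha1 and G6pdx, were not past the fold in retained cells.

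In HSC-like cells, a comparison chosen after seeing the data that rests on 44 Id2Δ/Δ cells, 30 genes were counted, with a median log2 ratio of -0.0037 against -0.02 over 7461 genes. Of the 30, 4 were lower past the fold, where 15.4% of all genes were, and 1 was higher, Slc16a1, where 9.76% were. Pgk1 was at 116 (97.2 to 137) in Id2+/+ and 20.7 (8.32 to 42.6) in Id2Δ/Δ, from 134 and 7 UMIs, a ratio of 0.178 (0.0703 to 0.378). The other lower ones were Gapdh (0.616, 0.514 to 0.733), Pgd (0.519, 0.273 to 0.916) and G6pdx (0.445, 0.0856 to 1.47), and the interval of G6pdx includes 1. Slc16a1 gave 1.46 (0.59 to 3.33) from 21 and 9 UMIs, past the fold with 0.5 UMI added and not on its raw counts. Pgk1 was thus the 1 gene of the 5 lower in retained cells that was past the fold here. Hk2 gave 0.64 (0.219 to 1.55) and fell short once 0.5 UMI was added, Pdk2 gave 1.26 (0.447 to 3.12), and Hk3 and Pfkfb3 were under 20 UMIs. Slc2a3 gave 1.44 (0.748 to 2.64).

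The HSC-like class itself changed with the clustering. It held 81 and 116 cells with each gene scaled within its library, 214 and 200 when cells of at least 1000 UMIs were taken, 195 and 197 at resolution 0.5, and 4 and 53 when cells were called to the labels' number. With the scaling within libraries Pgk1 gave 0.356 (0.223 to 0.559), from 51 and 34 UMIs, still past the fold but closer to 1. Gapdh then gave 0.721 (0.621 to 0.837), Pgd 0.706 (0.451 to 1.11), G6pdx 1.07 (0.431 to 2.88) and Slc16a1 1.3 (0.51 to 3.69), none of them past it. In the larger classes, Slc16a1 turned to 0.689 (0.357 to 1.3) with cells of at least 1000 UMIs and 0.884 (0.505 to 1.55) at resolution 0.5. Pgk1 there gave 0.296 (0.206 to 0.418) and 0.362 (0.266 to 0.487). Gapdh gave 0.602 (0.54 to 0.67) and 0.647 (0.59 to 0.71), past the fold in both settings. Pgd gave 0.646 (0.466 to 0.888) and 0.689 (0.512 to 0.924), past it in the former alone. G6pdx gave 0.715 (0.369 to 1.36) and 0.823 (0.475 to 1.43), short of it in both.

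Pgk1 and Gapdh gave ratios whose intervals lie below 1 in the other classes as well. In platelet-biased cells Pgk1 was at 123 (100.3 to 148) in Id2+/+ and 62.6 (50.8 to 76.3) in Id2Δ/Δ, a ratio of 0.511 (0.384 to 0.679). In erythroid-like cells it was at 59.3 (47.2 to 73.5) in Id2+/+ and 26.2 (22.3 to 30.4) in Id2Δ/Δ, a ratio of 0.441 (0.337 to 0.581), and in neutrophil-like cells at 160.2 (126 to 201) in Id2+/+ and 68.8 (51.1 to 90.7) in Id2Δ/Δ, a ratio of 0.43 (0.294 to 0.623). The levels of the 2 libraries did not overlap in their intervals in any of these classes. Gapdh gave 0.605 (0.551 to 0.665) in platelet-biased cells, 0.637 (0.594 to 0.684) in erythroid-like cells and 0.506 (0.446 to 0.575) in neutrophil-like cells, each past the fold. With the mean of each cell's CPM, Gapdh fell short of the fold in erythroid-like cells (log2 ratio -0.50). Pgk1 was the 1 gene of 25 that was past the fold on the lower side in retained, erythroid-like and neutrophil-like cells alike, where 111 of 4837 genes (2.29%) were. In the empty droplets Pgk1 gave 0.668 (0.486 to 0.913) (26.8 and 17.9 CPM) and Gapdh 0.935 (0.865 to 1.01) (337 and 316 CPM).

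Rows that RefSeq lists as pseudogenes were also lower in the Id2Δ/Δ library. Of 107 such rows counted in retained cells, 94 (87.9%) were lower past the fold in Id2Δ/Δ, with a median log2 ratio of -1.55, and the shares were 88.0%, 90.1% and 91.1% in platelet-biased, erythroid-like and neutrophil-like cells. In the empty droplets 58.2% of 98 rows were lower, with a median of -0.63, against 31.4% of all 9990 genes with a median of -0.34. Gapdh, Pgk1, Eno1 and Aldoa have near-identical copies elsewhere in the genome, whose rows can take a part of their reads, so their levels are uncertain to that extent. The copies that are listed under their own names held few UMIs over all cells under the mitochondrial limit. Eno1b, a copy of Eno1, had 150 and 102, Aldoart1, an aldolase of the testis, 25 and 15, and Pgk1-rs7, a copy of Pgk1, 20 and 12. Whether reads were divided between copies in unlike ways in the 2 libraries was not tested, nor was whether the low ratios of Gapdh and Pgk1 share a cause with those of the pseudogene rows. The sources used here do not state the chemistry or read length of each library, and a difference between the libraries and one between genotypes cannot be told apart in these ratios.

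The other classes held a few genes of their own in the comparison of genotypes. In platelet-biased HSC-like cells 28 genes were counted, with a median log2 ratio of -0.15 against -0.04 over 8037 genes. This median turned to 0.52 with the 36 genes kept in the clustering and to 0.53 at resolution 1.2, settings that left 4 Id2+/+ platelet-biased cells, and was near 0 at resolution 0.5 (0.038) and with each gene scaled within its library (0.0051). One gene was higher past the fold, where 6.67% of all genes were, and 6 were lower, where 15.1% were. The higher one was Dlat, at 31.5 and 48.6 CPM and a ratio of 1.54 (0.981 to 2.49). The lower ones besides Pgk1 and Gapdh were Slc2a3 (0.516, 0.311 to 0.855), Hk2 (0.52, 0.263 to 1.03), Ldhb (0.598, 0.387 to 0.927) and G6pdx (0.616, 0.342 to 1.11). Those of Hk2, Dlat and G6pdx have intervals that include 1. Ldhb gave log2 ratios short of the fold with cells of at least 1000 UMIs (-0.31) and at resolutions 0.5 (-0.19) and 1.2 (-0.31), as did Dlat with the 36 genes kept in the clustering (0.13) and at resolution 1.2 (0.18) and Gapdh in these last settings (-0.47 and -0.46). G6pdx turned to log2 ratios of 0.97 and 1.07 in the settings with 4 Id2+/+ cells and of 0.38 in Y-only cells. Also short of the fold in Y-only cells were Gapdh (-0.31), Slc2a3 (-0.52) and Dlat (0.05). In Xist-only cells Hk2 (-0.50), Ldhb (-0.52) and Dlat (0.35) were short of it. When the cells were clustered with each gene scaled within its library, which named 61 and 114 platelet-biased cells, the ratios were 0.485 (0.368 to 0.642) for Pgk1, 0.639 (0.581 to 0.704) for Gapdh, 0.483 (0.291 to 0.807) for Slc2a3 and 0.869 (0.566 to 1.36) for Ldhb.

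In erythroid-like cells 29 genes were counted, with a median log2 ratio of -0.05 against 0.03 over 8794 genes. None was higher past the fold (5.44% of all genes were) and 7 were lower (11.7% were). Besides Gapdh and Pgk1 these were Slc2a3, Pfkp, Pgam1, Pkm and Pdk2. All 5 had low levels in these cells, the highest being Pkm at 44.3 and 25.8 CPM and Pgam1 at 40.0 and 25.2 CPM. Pkm gave 0.584 (0.433 to 0.794), Pgam1 0.63 (0.463 to 0.87), Pfkp 0.545 (0.20 to 1.71), Slc2a3 0.654 (0.365 to 1.23) and Pdk2 0.685 (0.283 to 1.9). Pdk2 was past the fold with 0.5 UMI added and not on its raw counts. With the estimated free RNA subtracted, Pkm kept 0 of 62 UMIs in Id2+/+ and 56.9 of 166 in Id2Δ/Δ, Pgam1 gave a ratio of 1.06, Pfkp 2.81, Slc2a3 0.699 and Pdk2 0.778, so none of the 5 was lower past the fold after the subtraction. The shares subtracted were those of retained cells, which have fewer UMIs per cell. Whether they are too large for erythroid-like cells was not tested. In Y-only cells Pkm gave 1.59 (0.567 to 6.14), and Slc2a3 and Pdk2 had 0 UMIs in Id2+/+ and 7 and 3 in Id2Δ/Δ. Gapdh and Pgk1 gave 0.611 and 0.422 with free RNA subtracted and were still past the fold.

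In neutrophil-like cells 27 genes were counted, with a median log2 ratio of -0.17 against -0.01 over 5115 genes. None was higher past the fold (8.29% of all genes were) and 6 were lower (11.8% were). Besides Gapdh and Pgk1 these were Hk1 (0.611, 0.339 to 1.1), Hk2 (0.433, 0.209 to 0.874), Pfkp (0.614, 0.352 to 1.07) and Pdk1 (0.572, 0.285 to 1.14), each from 15 to 29 UMIs a library. Hk2 was lower past the fold in retained, platelet-biased and neutrophil-like cells, and in erythroid-like cells it had 0 and 4 UMIs. Among Xist-only cells it was short of the fold in retained (log2 ratio -0.06) and platelet-biased cells (-0.50). Pdk1 gave 1.15 (0.889 to 1.5) in retained, 1.24 (0.926 to 1.68) in erythroid-like and 0.905 (0.544 to 1.53) in platelet-biased cells, and its interval included 1 in these classes and in neutrophil-like cells. Among Xist-only neutrophil-like cells Pdk1 was short of the fold (log2 ratio -0.51).

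Erythroid-like cells differed from retained stem cells past the 2-fold limit in 14 genes of the list, with the glucose transporters Slc2a1 and Slc2a3, the hexokinases Hk2 and Hk3 and the pyruvate kinase Pkm lower, and Taldo1 and Rpia of the pentose phosphate pathway higher. Of 31 genes counted in both libraries, 3 were higher past the 2-fold limit in both, where 6.83% of all genes were, and 11 were lower, where 24.6% were. The median log2 ratios (erythroid-like over retained) were -0.62 and -0.77, against -0.34 and -0.32 over all genes. With TMM scaling the medians over all genes were -0.02 and 0.04, and Pdk2 then no longer passed the limit in both libraries. Nor did it with the unnamed cells left out of the retained cells. Hk3 fell short of the limit in the Id2+/+ library with the mean of each cell's CPM (log2 ratio -0.81). Erythroid-like cells gave 5.85% and 2.27% of their UMIs to haemoglobin, which lowers the CPM of every other gene by that share, and it came mostly from 10 and 15 haemoglobin-rich cells.

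Of the 3 genes with the highest levels in Id2+/+ stem cells, Ldha, Gapdh and Pkm, Pkm was the one past the 2-fold limit. In erythroid-like cells it was at 44.3 (34 to 56.8) in Id2+/+ and 25.8 (22.1 to 30.1) in Id2Δ/Δ, ratios of 0.0769 (0.0586 to 0.0993) and 0.0419 (0.0356 to 0.049). Pgam1, the mutase ahead of enolase, stood at 40.0 (30.2 to 51.9) in Id2+/+ and 25.2 (21.5 to 29.4) in Id2Δ/Δ, ratios of 0.209 (0.155 to 0.277) and 0.131 (0.11 to 0.155). With the estimated free RNA subtracted, Pkm kept 0 of 62 UMIs in Id2+/+ and gave 0.0148 in Id2Δ/Δ, and Pgam1 gave 0.102 and 0.103, so these ratios were lower still after the subtraction. The shares taken were again those of retained cells. Both genes stand side by side in the pathway with Eno1, which gave 0.624 (0.536 to 0.725) and 0.513 (0.474 to 0.555). Aldoc was near absent, with 1 and 0 UMIs against 57 and 89 in stem cells. In the Id2Δ/Δ library this makes it at least 40.7-fold lower against a floor of 3 UMIs over the erythroid-like cells. In the Id2+/+ library the ratio from 1 UMI was 0.0267 (0.000665 to 0.155). Aldoa, Tpi1, Gapdh and Pgk1 were below the stem cell level too and did not pass the 2-fold limit in both libraries. Pgk1 lay at the limit, with 0.498 (0.384 to 0.64) and 0.50 (0.409 to 0.611), and Gapdh furthest from it, with 0.876 (0.81 to 0.946) and 0.827 (0.784 to 0.871).

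Of the hexokinases mainly 1 form was seen in erythroid-like cells. Slc2a1 had 2 UMIs in each library, ratios of 0.0726 (0.00851 to 0.279) and 0.0224 (0.00266 to 0.0844), and Slc2a3 was at 11.4 and 7.47 CPM, ratios of 0.33 (0.179 to 0.571) and 0.247 (0.174 to 0.344). Hk2 had 0 UMIs in Id2+/+ erythroid-like cells, which allows up to 2.14 CPM and makes it at least 11.6-fold lower, and 4 UMIs in Id2Δ/Δ, a ratio of 0.0405 (0.0108 to 0.108). Hk3 had 4 and 3 UMIs. With free RNA subtracted 0 UMIs of Hk3 and 0.234 and 0.285 of Slc2a1 were left, and Gpi1 gave 0.198 and 0.269. Hk1 was close to its stem cell level, at 129 (110.5 to 149) in Id2+/+ and 122 (114 to 131) in Id2Δ/Δ, ratios of 0.987 (0.813 to 1.19) and 1.18 (1.05 to 1.32). Hk1 therefore made up 97.8% (94.5 to 99.4) and 99.1% (98.2 to 99.6) of hexokinase UMIs, against 79% (74.3 to 83.1) and 83% (79.7 to 86) in retained cells. Gpi1 was lower as well, at 124 and 115 CPM against 402 and 388, ratios of 0.307 (0.259 to 0.362) and 0.296 (0.271 to 0.323).

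The forms of phosphofructokinase also differed in their shares. Pfkp, the platelet form, was at 4.29 (1.57 to 9.33) in Id2+/+ and 2.34 (1.31 to 3.85) in Id2Δ/Δ against 39.4 and 39.7 CPM in stem cells, ratios of 0.109 (0.0388 to 0.247) and 0.0588 (0.0323 to 0.0996). Pfkm was higher, at 39.3 and 54.3 CPM and ratios of 1.23 (0.848 to 1.78) and 2.31 (1.86 to 2.89), past the 2-fold limit in the Id2Δ/Δ library alone. Pfkm thus took 36.2% (28.6 to 44.4) and 44.6% (41.1 to 48.2) of phosphofructokinase UMIs, compared with 16% (12.6 to 19.8) and 10.9% (9.05 to 13) in retained cells, and Pfkp 3.95% and 1.92% compared with 19.7% and 18.5%. With free RNA subtracted the shares in erythroid-like cells were 0.561% and 1.24% for Pfkp and 38.5% and 45.0% for Pfkm, and the Pfkp ratios were 0.0133 and 0.0363.

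Of the lactate genes, Ldhb was lower and Slc16a1 higher past the limit in both libraries. Ldhb was low, at 5.0 (2.01 to 10.3) in Id2+/+ and 4.67 (3.15 to 6.67) in Id2Δ/Δ and ratios of 0.0443 (0.0176 to 0.0926) and 0.052 (0.0346 to 0.0753), and Ldha made up 99.2% and 99.4% of lactate dehydrogenase UMIs. With free RNA subtracted 0 of 7 and 18.4 of 30 Ldhb UMIs were left. Ldha itself stood at 621 and 741 CPM, ratios of 0.674 (0.622 to 0.731) and 0.668 (0.642 to 0.695). Slc16a1 (ENSMUSG00000032902, chr3:104638664-104658462), which exports lactate with a proton and is known from the red cell membrane, was higher at 101 (84.8 to 119) in Id2+/+ and 108 (100.5 to 117) in Id2Δ/Δ against 30.5 and 39.3 in stem cells, ratios of 3.31 (2.45 to 4.51) and 2.76 (2.34 to 3.26). Slc16a3 had 6 and 21 UMIs, ratios of 0.831 (0.252 to 2.45) and 0.414 (0.23 to 0.726), past the limit on the lower side in the Id2Δ/Δ library alone.

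Of the 5 pentose phosphate genes, 4 lay above the stem cell level and Pgd below it, with median log2 ratios of 0.93 and 0.84. Taldo1 (ENSMUSG00000025503, chr7:141392160-141402976) was at 549 (511 to 589.5) in Id2+/+ and 607 (588 to 627) in Id2Δ/Δ, ratios of 2.25 (2.01 to 2.52) and 2.09 (1.97 to 2.23). Rpia (ENSMUSG00000053604, chr6:70765720-70792175) was at 227 (203 to 254) in Id2+/+ and 270.1 (258 to 283) in Id2Δ/Δ, ratios of 2.54 (2.11 to 3.05) and 2.83 (2.55 to 3.15). These 2 act in the non-oxidative branch and were past the fold. G6pdx, the oxidative entry step, followed with 1.91 (1.28 to 2.87) and 1.79 (1.37 to 2.36), while Tkt gave 1.11 (1.01 to 1.23) and 1.06 (1.0 to 1.12) and Pgd 0.757 (0.565 to 1.01) and 0.80 (0.68 to 0.942). At pyruvate entry the subunits Dlat (2.24, 1.66 to 3.03, and 1.8, 1.54 to 2.13) and Pdhb (1.42, 1.12 to 1.79, and 1.78, 1.55 to 2.04) were higher without passing the limit in both libraries, and Pdk2 was lower, at 5.0 and 3.43 CPM, ratios of 0.356 (0.132 to 0.826) and 0.446 (0.25 to 0.779).

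**Figure D3:**
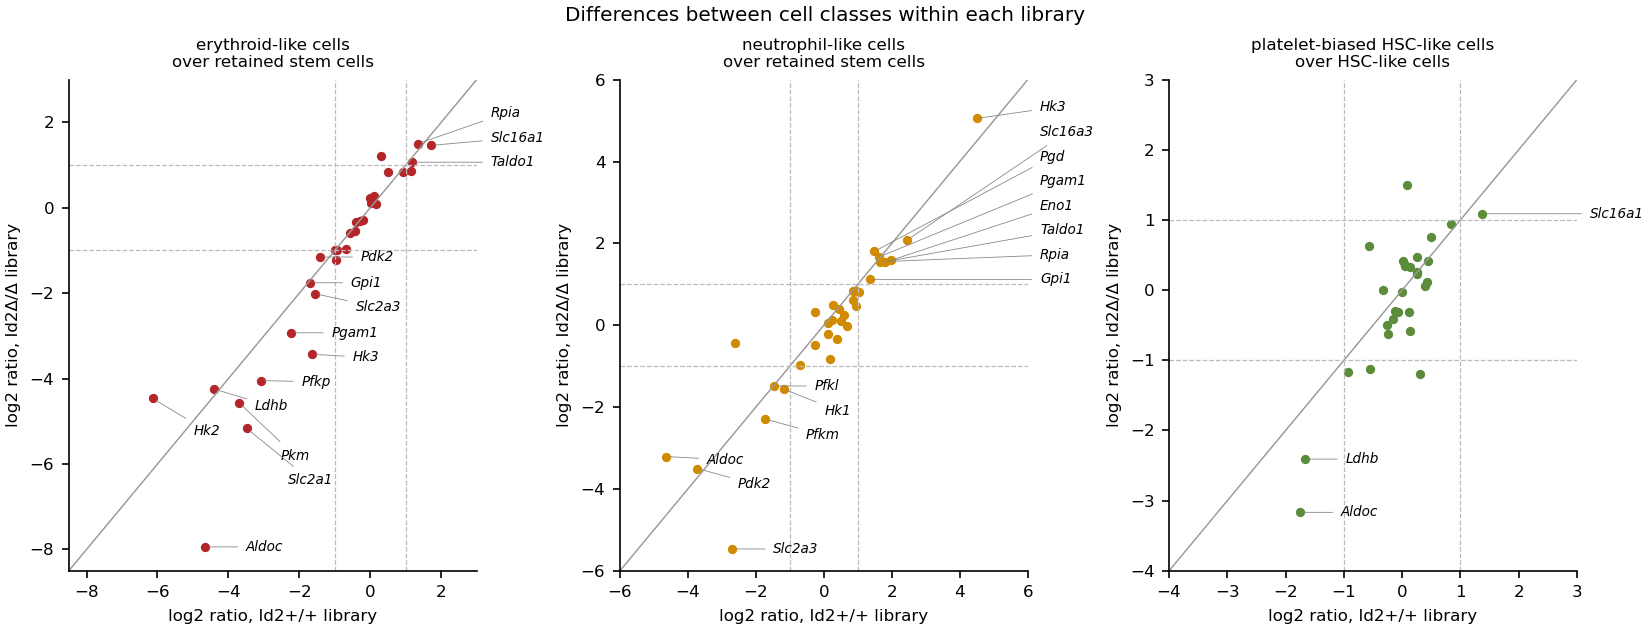
Log2 ratios between cell classes in the Id2+/+ library (horizontal) and the Id2Δ/Δ library (vertical), 1 point per gene, for erythroid-like over retained, neutrophil-like over retained and platelet-biased over HSC-like cells; named genes are past a 2-fold ratio in both libraries. In both libraries 3 genes lie high and 11 low in erythroid-like cells, 8 high and 6 low in neutrophil-like cells, and 1 high and 2 low in platelet-biased cells.

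Neutrophil-like cells had a high level of the myeloid hexokinase Hk3 and higher levels than stem cells of several genes of lower glycolysis and of the pentose phosphate pathway. Of 33 genes counted in both libraries, 8 were higher past the 2-fold limit in both, where 3.99% of all genes were, and 6 were lower, where 19.8% were. The median log2 ratios (neutrophil-like over retained) were 0.44 and 0.29, against -0.45 and -0.51 over all genes. With TMM scaling the latter were -0.12 and -0.13, and Hk1 then no longer passed the limit in both libraries. This class came from 461854 and 726446 UMIs in all, fewer than the retained, platelet-biased or erythroid-like cells. Its monocyte and macrophage markers summed to 829 and 2090 CPM, against 306 and 376 in retained cells, and the part of such cells in the levels was not tested. Of 6 T or NK cell markers, 1, the granule gene Nkg7, had UMIs, at 1897 and 2248 CPM, and the other 5 were at 0.

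Hk3 (ENSMUSG00000025877, chr13:55005985-55021475) had the highest ratio of the genes above the stem cell level. It was at 227 (186 to 275) in Id2+/+ and 194 (163 to 229) in Id2Δ/Δ, ratios of 23.1 (14.4 to 38.9) and 33.7 (22.2 to 52.9) over stem cells, or 34.5 and 37.7 with free RNA subtracted. It made up 68.6% (60.6 to 75.9) and 77.9% (71.1 to 83.7) of hexokinase UMIs, compared with 5.97% and 4.63% in retained cells. Hk1 went the other way, at 56.3 and 34.4 CPM and ratios of 0.432 (0.277 to 0.647) and 0.333 (0.213 to 0.498), and its share of hexokinase UMIs was 17% and 13.8%. Hk2 gave 1.92 (1.11 to 3.21) and 1.34 (0.715 to 2.37). Gpi1, the next step, was at 1028 (938 to 1125) in Id2+/+ and 842 (777 to 912) in Id2Δ/Δ, ratios of 2.56 (2.28 to 2.86) and 2.17 (1.98 to 2.38). The transporter Slc2a3 was low, with 2 and 0 UMIs. The 2 UMIs of the Id2+/+ library gave a ratio of 0.125 (0.0148 to 0.467), and the Id2Δ/Δ library gave a level at least 7.34-fold below its stem cells.

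Among the phosphofructokinases, Pfkl and Pfkm were lower, with ratios of 0.354 (0.216 to 0.552) and 0.353 (0.249 to 0.488) and 0.272 (0.072 to 0.728) and 0.176 (0.0357 to 0.528), the latter from 4 and 3 UMIs of which 0.904 and 0.652 were left with free RNA subtracted, and Pfkp kept a level of 62.8 and 38.5 CPM (1.59, 1.01 to 2.46, and 0.971, 0.628 to 1.45). Pfkp therefore made up 53.7% (39.6 to 67.4) and 40.0% (28.5 to 52.4) of phosphofructokinase UMIs in these cells, and 3.95% and 1.92% in erythroid-like cells. The bifunctional enzymes were thinly covered, with 9 and 4 UMIs for Pfkfb3, 5 and 4 for Pfkfb4 and 0 in both libraries for Pfkfb2, which allows up to 6.5 and 4.13 CPM.

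Of the triose genes, Eno1 and Pgam1 were past the fold. Eno1 was at 1106 (1013 to 1207) in Id2+/+ and 987 (916 to 1062) in Id2Δ/Δ, ratios of 3.91 (3.47 to 4.41) and 3.0 (2.74 to 3.28), and Pgam1 at 591 (523 to 666) in Id2+/+ and 611 (556 to 671) in Id2Δ/Δ, ratios of 3.09 (2.64 to 3.61) and 3.18 (2.83 to 3.57). Pkm, the step that follows, had close levels in both libraries, at 1098 (1004 to 1198) in Id2+/+ and 1104 (1029 to 1183) in Id2Δ/Δ and stayed just under the limit, with 1.91 (1.72 to 2.12) and 1.79 (1.65 to 1.94). Aldoa also lay under it (1.81, 1.61 to 2.03, and 1.77, 1.62 to 1.94). Gapdh gave 1.42 (1.29 to 1.56) and 1.07 (0.961 to 1.18), Tpi1 1.09 (0.927 to 1.28) and 0.863 (0.755 to 0.982) and Pgk1 1.35 (1.02 to 1.75) and 1.32 (0.951 to 1.79). Aldoc had 0 and 1 UMIs. In the Id2+/+ library it was at least 4.11-fold lower than in stem cells, and 1 UMI in the Id2Δ/Δ library gave a ratio of 0.0725 (0.00181 to 0.414).

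At lactate 1 of 4 genes was past the fold. Ldha was at 769 and 797 CPM (0.834, 0.743 to 0.934, and 0.719, 0.658 to 0.783) and Ldhb at 93.1 and 112 CPM (0.824, 0.581 to 1.14, and 1.24, 0.966 to 1.58), so that Ldhb made up 10.8% and 12.3% of lactate dehydrogenase UMIs, against 10.9% and 7.49% in retained and 0.798% and 0.626% in erythroid-like cells. The transporter that differed was Slc16a3 (ENSMUSG00000025161, chr11:120948484-120959000), at 28.1 (15 to 48.1) in Id2+/+ and 33 (21.2 to 49.2) in Id2Δ/Δ, ratios of 5.46 (2.26 to 13.5) and 4.18 (2.39 to 7.18). It made up 41.9% (24.5 to 60.9) and 52.2% (36.9 to 67.1) of the UMIs of the 2 lactate transporters, compared with 14.5% and 16.7% in retained and 4.08% and 2.93% in erythroid-like cells.

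The pentose phosphate genes were the group furthest above the stem cells, with median log2 ratios of 1.48 and 1.55 and all 5 above 0. Pgd was at 195 (157 to 239.5) in Id2+/+ and 215 (182 to 251) in Id2Δ/Δ, ratios of 2.79 (2.12 to 3.65) and 3.48 (2.85 to 4.24). Taldo1 was at 853 (771 to 942) in Id2+/+ and 851 (785 to 921) in Id2Δ/Δ, ratios of 3.49 (3.06 to 3.99) and 2.94 (2.66 to 3.23), and Rpia at 284 (237 to 337) in Id2+/+ and 279 (242 to 321) in Id2Δ/Δ, ratios of 3.17 (2.52 to 3.98) and 2.93 (2.47 to 3.47). Tkt gave 1.83 (1.62 to 2.06) and 1.54 (1.4 to 1.7) and G6pdx 1.18 (0.569 to 2.26) and 1.39 (0.77 to 2.37). The comparisons of both lineages share the retained stem cells. At pyruvate entry Pdk2 had 0 UMIs in both libraries, at least 2.16-fold and 1.86-fold lower. It is among the 6 lower genes because 0.5 UMI was added to each count, and its bound in Id2Δ/Δ does not reach the 2-fold limit. The other 5 genes were within the 2-fold limit in both libraries.

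**Figure D4:**
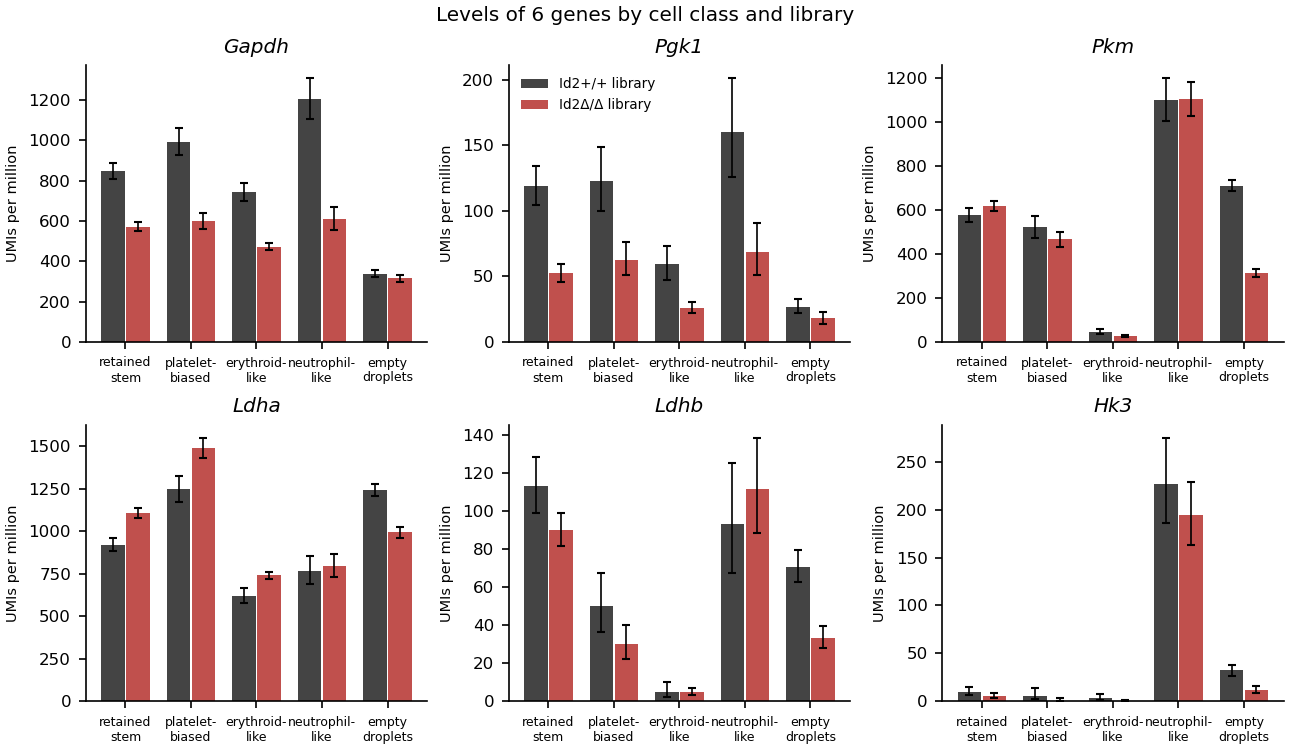
Level (CPM, bars from 0, exact Poisson 95% intervals) of Gapdh, Pgk1, Pkm, Ldha, Ldhb and Hk3 by cell class and in empty droplets, for both libraries. Gapdh and Pgk1 are lower in Id2Δ/Δ in each cell class, Pkm and Ldhb are near 0 in erythroid-like cells, and Hk3 stands out in neutrophil-like cells at 227 and 194 CPM.

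Platelet-biased HSC-like cells, which carry Pf4, Gp1bb and other megakaryocyte genes, differed from HSC-like cells past the 2-fold limit in 3 of the genes, a share near that of all genes. Of 29 genes counted in both libraries, 1 was higher past the 2-fold limit in both, where 3.62% of all genes were, and 2 were lower, where 4.02% were. The median log2 ratios (platelet-biased over HSC-like) were 0.03 and 0.06, against -0.05 and -0.02 over all genes. The higher gene was Slc16a1 and the lower ones were Ldhb and Aldoc. The 10 platelet markers summed to 3294 and 6001 CPM in platelet-biased cells against 458 and 502 in HSC-like cells, and the 10 HSC markers to 469 and 370 CPM against 1182 and 1510.4. The 16 genes of the dissociation stress response were at 1272 and 454 CPM in platelet-biased cells and at 2319 and 1082 in HSC-like cells, and their part in the ratios was not tested. The genes of this list had been left out of the clustering, so the classes were not drawn from them.

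Ldhb was at 50.2 (36.3 to 67.6) in Id2+/+ and 30.0 (22.1 to 39.9) in Id2Δ/Δ in platelet-biased cells against 161 (139 to 186) in Id2+/+ and 159.6 (119.9 to 208) in Id2Δ/Δ in HSC-like cells, ratios of 0.312 (0.218 to 0.436) and 0.188 (0.125 to 0.283). Ldha was higher, at 1247 (1173 to 1324) in Id2+/+ and 1489.5 (1429.7 to 1551) in Id2Δ/Δ against 695 (647 to 744) in Id2+/+ and 774 (683 to 874) in Id2Δ/Δ, ratios of 1.8 (1.64 to 1.97) and 1.92 (1.69 to 2.19) that stayed just under the limit. The share of Ldha in lactate dehydrogenase UMIs accordingly was 96.1% (94.8 to 97.2) and 98% (97.4 to 98.5), compared with 81.2% (78.6 to 83.6) and 82.9% (78.3 to 86.9) in HSC-like cells. Slc16a1 was at 47.9 (34.4 to 64.9) in Id2+/+ and 59.4 (48 to 72.8) in Id2Δ/Δ against 18.2 (11.3 to 27.8) in Id2+/+ and 26.6 (12.2 to 50.5) in Id2Δ/Δ, ratios of 2.63 (1.52 to 4.69) and 2.23 (1.13 to 5.04), and Aldoc at 11.7 and 5.11 CPM against 40.7 and 47.3 CPM, ratios of 0.287 (0.129 to 0.575) and 0.108 (0.0401 to 0.268). With free RNA subtracted Slc16a1 gave 4.09 and 2.52. The HSC-like cells of the Id2Δ/Δ library were 44 in number, which limits its side of each ratio. In both libraries the intervals of the 2 classes did not overlap for Ldha and Ldhb.

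Most platelet-biased cells were in clusters of 1 library, 71 Id2+/+ cells in one led by Ccl5, Hspa1a and Timm8a1 and 65 Id2Δ/Δ cells in one led by Pf4 and Gp1bb. A cluster of 4 Id2+/+ and 27 Id2Δ/Δ cells was led by cell-cycle genes (Aurkb, Ube2c, Top2a) along with Pf4. Of the HSC-like cells, 170 of 175 in Id2+/+ were in a cluster of that library led by Meg3, Fos, Klf2 and Dusp1. The 44 of Id2Δ/Δ were in another, with 5 Id2+/+ cells, led by Sult1a1 and Gm4951. Since the classes were made up so differently, the comparison was repeated with each gene scaled within its library before clustering. That gave 81 and 116 HSC-like cells and 61 and 114 platelet-biased cells. Ldha then was at 1295 and 1449 CPM in platelet-biased cells against 674 and 746 in HSC-like cells, and Ldhb at 44.8 and 39 against 171 and 166. Slc16a1 gave ratios of 3.45 (1.51 to 9.2) and 3.28 (1.96 to 5.82) and Aldoc 0.193 (0.0706 to 0.459) and 0.151 (0.0692 to 0.303). These 4 genes kept their direction in both libraries under this clustering. In the Id2+/+ library the log2 ratio of Slc16a1, 1.38 as reported, fell short of the 2-fold limit when cells were called to the labels' number (0.79), with the 36 genes kept in the clustering (0.52) and at resolution 1.2 (0.68).

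**Figure D5:**
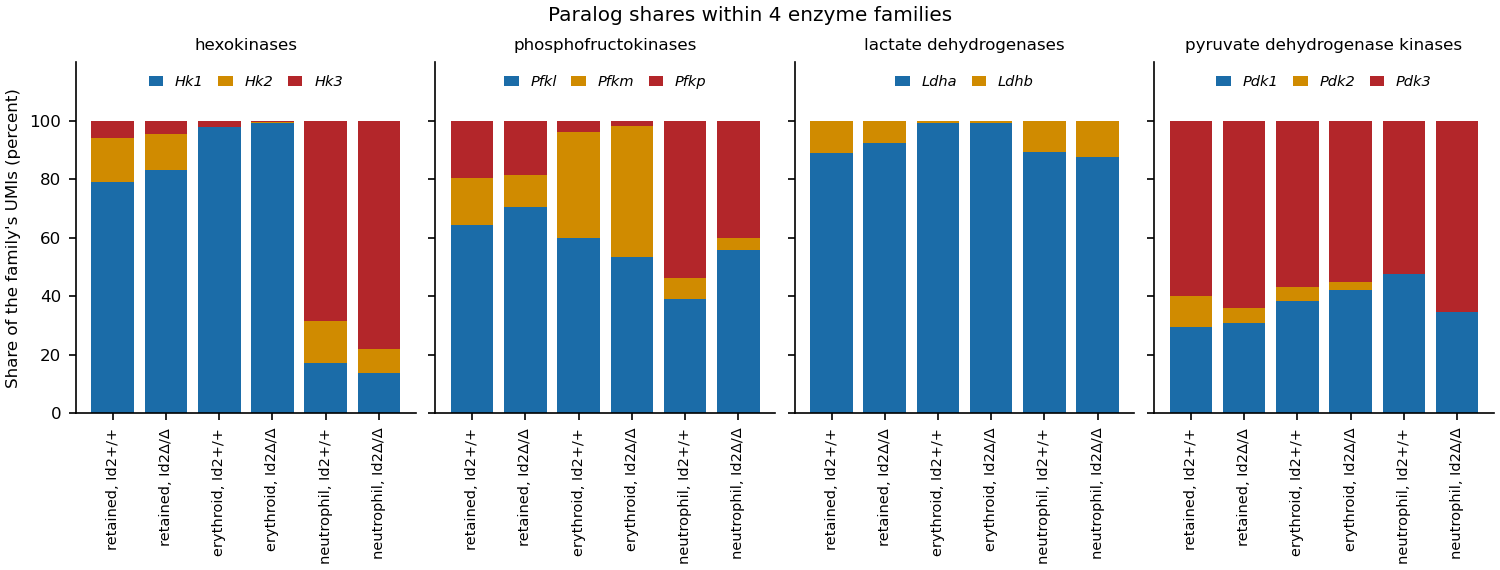
Share of UMIs (%) taken by each form of hexokinase, phosphofructokinase, lactate dehydrogenase and pyruvate dehydrogenase kinase, by cell class and library. Hk1 takes 97.8% and 99.1% of hexokinase UMIs in erythroid-like cells and Hk3 68.6% and 77.9% in neutrophil-like cells, while Ldha takes 99.2% and 99.4% of lactate dehydrogenase UMIs in erythroid-like cells.

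Other genes of the same pathways, 34 in number and not among the 36, were read beside them. In retained stem cells 20 had enough UMIs, and between genotypes none was higher past the fold and 2 were lower, where 3.3% and 13.5% of all genes were. The 2 were Eno1b (0.319, 0.215 to 0.471) and Pdp2, a phosphatase that switches pyruvate dehydrogenase on (0.643, 0.331 to 1.27). In platelet-biased cells 3 of 14 were lower (15.1% of all genes were), Eno1b, Bpgm and H6pd, and none higher. In erythroid-like cells 4 of 17 were lower (11.7%), Eno1b, Bpgm, Slc2a4 and Pcx, and none higher. In neutrophil-like cells 1 of 12 was higher (8.29%), Fbp1, and 1 lower (11.8%), Eno1b. Eno1b was thus lower past the fold in each of the 4 classes. In erythroid-like over retained cells 3 of 19 were higher in both libraries, where 6.83% of all genes were, and 3 lower, where 24.6% were. Pklr, the pyruvate kinase of liver and red cells, was at 97.9 and 88.6 CPM in erythroid-like cells against 5.16 and 5.55 in stem cells, ratios of 19 (10.3 to 38.9) and 16 (10.8 to 24.7). It stood above Pkm there, which was at 44.3 and 25.8 CPM, whereas in stem cells Pkm was at 576 and 617 CPM. Slc2a8, a glucose transporter, was at 22.9 and 29.1 CPM against 10.3 and 7.68, and Pcx, the pyruvate carboxylase, gave 9.65 (2.84 to 50.9) and 8.21 (2.99 to 31.4). G6pc3, a phosphatase of glucose 6-phosphate, was lower (0.369, 0.253 to 0.527, and 0.343, 0.291 to 0.403), as were Pdp2 and Fbp1, the fructose bisphosphatase. Bpgm, the enzyme that makes 2,3-bisphosphoglycerate in red cells, gave 2.29 (1.74 to 3.01) and 1.74 (1.44 to 2.12).

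In neutrophil-like over retained cells 4 of 16 counted were higher in both libraries, where 3.99% of all genes were, and 1, Bpgm, was lower, where 19.8% were. Mpc1, a subunit of the mitochondrial pyruvate carrier, was at 469.8 and 496 CPM against 126 and 152, ratios of 3.73 (3.1 to 4.47) and 3.26 (2.87 to 3.71). Rpe, the epimerase of the pentose phosphate pathway, gave 3.42 (2.41 to 4.84) and 3.06 (2.29 to 4.06) and Adpgk, a glucokinase that uses ADP, 3.73 (2.37 to 5.85) and 3.01 (2.16 to 4.16). The fourth was Eno1b, whose near-identity to Eno1 makes its count uncertain. In platelet-biased over HSC-like cells none of 11 was past the limit in either direction.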

How the data were processed

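The authors deposited 1 matrix of raw UMI counts per library (737280 barcodes, 27998 genes) without normalization or a call of cells; per the labels, the submitters' processing notes name Cell Ranger 2.2.0 and mm10. The deposited counts were used as they are. A barcode was called a cell at 10% or more of the UMIs of the 99th percentile of the 1000 deepest barcodes, and the share of mitochondrial UMIs had to be under 10%, which kept 333 of 349 Id2+/+ and 625 of 632 Id2Δ/Δ cells. The labels give 383 and 686 analyzed cells.

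Cells of both libraries were clustered together without the 36 genes (scanpy 1.11.5, leidenalg 0.10.2; counts scaled to 10000 per cell, 2000 variable genes, 20 components, 15 neighbours, resolution 1, then 0.8 for retained cells, seed 0). Clusters of other cell types were those with 4 markers above a log2 fold of 1 in 25% of their cells, and names needed 3 markers above 0.5 in 10%. Scrublet marked 2 of 333 and 1 of 625 cells, which were kept.

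Intervals used scipy 1.17.1 in Python 3.11.15, TMM factors edgeR 4.0.16 and plots matplotlib 3.10.9. With 1 library per genotype no test was run. The gene list, the marker lists and the other pathway genes were chosen with earlier results of these data known. Genes the study names, the highest gene of each role and genes past the fold were to be given with full values. Some of them are given by ratio or by UMIs alone, and the rest are summarised. A repeat without the unnamed retained cells and the genotype comparison in HSC-like cells were added after seeing the data. Ratios and their intervals were tested on simulated counts. No sequences are printed.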

Additional observations from a re-analysis of the deposited data

How the results depend on the processing

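No paired analysis was possible because there was 1 library per genotype, and leaving out a replicate was not possible for the same reason. Of 186 values that answer a comparison, each under 1 changed setting, 168 moved by less than their counting interval (counts by less than 1.5 times). The sign changed in 18 of the 186, all medians whose reported values lie between -0.15 and 0.06. Of 973 values for single genes, 902 moved by less than their interval and 9 changed sign. The summed level of the 36 genes in retained cells was 5873 CPM in Id2Δ/Δ with cells of at least 1000 UMIs and 500 genes, 5866 in Id2+/+ with free RNA subtracted, 5852 and 5853 as the mean of each cell's CPM, and in Id2Δ/Δ 5323 with all cell types left in and 5804 with the unnamed cells left out, a setting chosen after seeing the data. The number of genes higher past the fold in retained cells, 0, became 1 when cells were called to the labels' number, with TMM scaling, with free RNA subtracted and with the unnamed cells left out, and 2 in cells with Xist. The number lower, 5, became 2 with a minimum of 100 UMIs, 10 with all cell types left in and 8 with the unnamed cells left out. In erythroid-like over retained cells the Id2Δ/Δ median was -0.41 with TMM scaling and -0.31 with a minimum of 100 UMIs. Between genotypes in platelet-biased cells the median was 0.52 with the 36 genes kept in clustering and 0.53 at resolution 1.2, settings that left 4 Id2+/+ platelet-biased cells. The log2 ratio of G6pdx between genotypes in platelet-biased cells changed sign in the same settings (0.97 and 1.07) and in cells with Y-linked UMIs (0.38). In erythroid-like cells the log2 ratios between genotypes changed sign with free RNA subtracted for Pfkp (0.76), Pgam1 (0.055) and Pkm (4.57), and in cells with Y-linked UMIs for Slc2a3 (1.44), Pkm (0.52) and Pdk2 (0.34). Those of 4.57, 1.44 and 0.34 had 0 UMIs in Id2+/+, so their size comes from the 0.5 UMI added. The causes were not tested. The cells in a class moved with the clustering: the HSC-like class held 4 Id2+/+ cells when cells were called to the labels' number, and 200 and 197 Id2Δ/Δ cells with at least 1000 UMIs and at resolution 0.5, in place of 175 and 44. Depth limited the genes at low levels: in retained cells the counting intervals of Hk3 (21 and 27 UMIs) and Slc16a3 (11 and 37 UMIs) include 1.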
